A study of Rattus norvegicus with 20 samples.

Results

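The genes described here are 6 podocyte genes, Nphs1, Podxl, Ptpro, Synpo, Plce1 and Wt1, followed through every library of a rat study of acute kidney injury after trauma. They were picked by symbol, and each symbol matched 1 of the 34681 rows of the deposited table. All 6 were among the 15954 rows that passed the filter on low values, which kept rows reaching a value of 10 in 3 libraries or more. Stranded, paired-end mRNA libraries were made from frozen rat kidneys, and the labels put them into 6 libraries of RM, 5 of HS, 3 of RM-HS and 6 of Sham. The labels do not spell out RM or HS, and while the design text speaks of 19 libraries, 5 of them RM, 20 are labelled and 6 of those are RM. The sources used here do not give strain, sex, age, the time after injury or the region of kidney sampled, so what RM, HS, RM-HS and Sham rats share beyond being rats with frozen kidneys cannot be stated. Whether the libraries stand for different animals is not stated either, and a p-value here measures only how far these samples spread, some of which may be technical.

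Podocytes are the epithelial cells that wrap the capillaries of the glomerulus, the filter at the head of each nephron. Their interlocking foot processes are bridged by the slit diaphragm, a membrane-like junction that, with the glomerular basement membrane, holds back plasma proteins. Podocytes lie only in the renal cortex, where the glomeruli are, and loss or mutation of several of these genes causes proteinuria in people. Nphs1 encodes nephrin, the adhesion molecule that spans the slit itself. Podxl encodes podocalyxin, a sialic acid-rich surface protein that keeps foot processes apart, and Ptpro encodes a receptor tyrosine phosphatase of the apical podocyte membrane, also called GLEPP1. Synpo encodes synaptopodin, an actin-binding protein of the foot process, and Plce1 encodes phospholipase C epsilon, a Ras-regulated signalling enzyme that is not restricted to podocytes. Wt1 encodes a zinc finger transcription factor that mature podocytes keep on and that activates Nphs1 and Podxl. Of the 6, nephrin alone is a building block of the slit, so the set is better read as podocyte genes than as slit diaphragm proteins.

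On the rn6 build Nphs1 (GSRG0000489) spans chr1:88922433-88950559, Plce1 (GSRG0002185) chr1:257157262-257464187 and Wt1 (GSRG0019537) chr3:95133713-95180564. Podxl (GSRG0022747) spans chr4:58829043-58893243, Ptpro (GSRG0022549) chr4:171251185-171461569 and Synpo (GSRG0037817) chr18:55864923-55891710. Each span is the whole annotated gene, exons and introns together.

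RefSeq promoters of the GRCr8 build, 250 bases before to 50 after the gene start, were at hand for 5 of the 6 genes, and Plce1 is named only. The 3 printed are those of Nphs1, which differed most from Sham, of Podxl, and of Wt1, which encodes a factor that acts on the other 2. They are written 5′ to 3′ on the strand of the gene, with capitals marking matches to the motifs searched.
Nphs1, GRCr8 chr1:94848011-94848310, plus strand: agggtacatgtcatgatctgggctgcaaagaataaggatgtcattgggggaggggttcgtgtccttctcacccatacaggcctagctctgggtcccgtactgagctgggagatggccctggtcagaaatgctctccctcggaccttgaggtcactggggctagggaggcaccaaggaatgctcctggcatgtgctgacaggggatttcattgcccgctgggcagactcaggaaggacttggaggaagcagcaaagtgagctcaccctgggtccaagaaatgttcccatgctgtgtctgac
Podxl, GRCr8 chr4:61149082-61149381, minus strand: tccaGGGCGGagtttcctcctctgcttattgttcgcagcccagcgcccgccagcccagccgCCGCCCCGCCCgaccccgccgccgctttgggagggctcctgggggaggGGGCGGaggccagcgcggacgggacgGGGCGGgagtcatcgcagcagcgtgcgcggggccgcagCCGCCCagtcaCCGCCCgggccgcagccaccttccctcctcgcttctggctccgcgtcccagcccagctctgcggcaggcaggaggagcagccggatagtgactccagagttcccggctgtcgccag
Wt1, GRCr8 chr3:112021759-112022058, plus strand: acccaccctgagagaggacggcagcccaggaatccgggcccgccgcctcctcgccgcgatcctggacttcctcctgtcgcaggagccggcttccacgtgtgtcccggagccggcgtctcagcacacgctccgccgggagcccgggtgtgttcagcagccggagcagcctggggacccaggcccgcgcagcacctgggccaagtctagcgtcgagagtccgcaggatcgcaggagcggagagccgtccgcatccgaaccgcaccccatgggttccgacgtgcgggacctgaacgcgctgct
The motifs, chosen after the expression values were seen, were a WT1 or EGR site (GCGGGGGCG), a forkhead site (GTAAACA), an LMX1B site (TAATTA), a TCF21 E-box (CAGCTG) and a GC box (GGGCGG), each searched on both strands, where GC boxes may overlap each other or the WT1 or EGR site. Over all 33469 RefSeq promoters of that length, 2.73% held the WT1 or EGR site, 3.78% the forkhead site, 5.36% the LMX1B site, 15.1% the E-box and 33.1% the GC box. Among the 5 promoters GC boxes were found in Podxl (7 matches), Synpo (3) and Ptpro (1), and the Nphs1 and Wt1 windows held none of the 5 motifs. The printed promoters differ in base composition, with 56.3% G and C in Nphs1, 74.7% in Podxl and 71.0% in Wt1, against a mean of 52.7% over all promoters. A match is a run of letters and not a shown binding site.

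The libraries held 45047179 to 109940948 reads in the table. The 14 mitochondrial rows took 42.2% to 54.7% of them, leaving 23.3 to 51.9 M other reads, and the lowest count of any of the 6 genes in a library was 77 reads (Wt1). Levels are read counts normalized by the authors with DESeq2, and are not divided by gene length, so they are compared between libraries and not between genes, and the mean level of a gene served only to choose which genes of a list are named. The Sham libraries did not look alike in the nephron segments they held. Slc5a2, which encodes a glucose carrier of the cortical proximal tubule, reached 9389 or above in all 14 injured libraries, against 6791 in Sham 1 and 7863 in Sham 6 but 48.2, 396, 180.1 and 43.1 in Sham 2, 3, 4 and 5. The summed level of 8 early proximal tubule genes ran from 171580 to 259530 in RM, 146360 to 180040 in HS and 210910 to 308820 in RM-HS, against 155470 and 179650 in Sham 1 and 6 and 42176 to 76783 in Sham 2 to 5, with no gene of the list at 0 in any library. The summed level of 7 collecting duct genes, which include the water channel gene Aqp2, was 10915 to 38549 in RM, 13182 to 21182 in HS and 8086.7 to 19515 in RM-HS. In Sham 1 and Sham 6 it was 33771 and 48826, and in Sham 2 to 5 it was 52342 to 88011. RM 1 stood apart within RM, at 38549 for this sum against 15531 or less in the other RM libraries. The summed level of 6 thick ascending limb genes was 179770 in Sham 2, nearest to the injured kidneys, against 289270 in Sham 1 and 267210 in Sham 6. Sham 1 and Sham 6 are shown beside all 6 Sham libraries as the controls nearest to the injured kidneys in early proximal tubule genes, and not in every segment. That pair was named from measured tubule levels in earlier results of these data and no label records the region sampled, so the pair is a description and lends no independent support. Such levels follow the 6 genes over all 20 libraries (r = 0.93 for Slc5a2 with their mean). Calls that hold or end with the pair may therefore follow from how it was named. Library names begin with R or S, a letter whose meaning is not given: all RM-HS and Sham libraries, 3 of HS and 1 of RM begin with R.

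**Figure D1:**
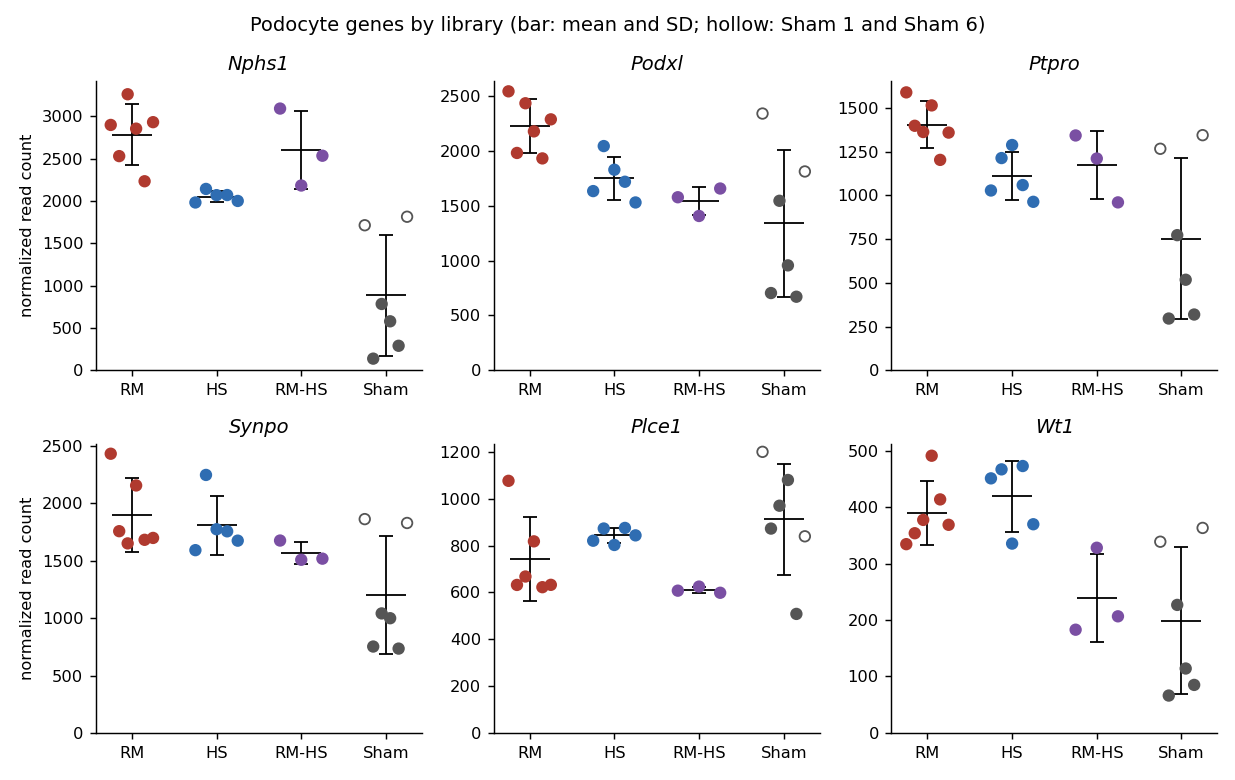
Normalized read counts (y axis, linear from 0) of the 6 podocyte genes in each of the 20 libraries, by group (x axis), with points for libraries, a bar for the mean and whiskers for the SD; hollow points are Sham 1 and Sham 6. Sham 2 to 5 are the 4 lowest Sham libraries for every gene but Plce1, and every RM, HS and RM-HS library lies above all 6 Sham libraries for Nphs1.

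Nephrin was the gene that set the injured kidneys most clearly apart from Sham. Nphs1 ran from 2232 through a median of 2876 to 3260.2 in RM, stood at 1982, 2142, 2068, 2069 and 1999.7 in HS 1 to 5, and at 3091, 2182 and 2534 in RM-HS 1 to 3. Against these, it stood at 1713, 137, 783, 578, 289 and 1813 in Sham 1 to 6. Every injured library lay above every Sham library, and even the highest Sham library, Sham 6, stayed below the lowest HS library. The group means were 2784 ± 356 in RM (SD, n = 6), 2052 ± 63.8 in HS (n = 5) and 2602 ± 458 in RM-HS (n = 3), against 885 ± 717 in Sham (n = 6). The HS libraries were the tightest of the 4 groups, and RM lay wholly above HS.

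Podocalyxin and the phosphatase Ptpro were lowest within Sham in the same 4 libraries, Sham 2 to 5, but Sham 1 and 6 stood among the injured kidneys. Podxl ran from 1931 through a median of 2232 to 2542 in RM, stood at 1633, 2043, 1827, 1718 and 1529 in HS and at 1577, 1406 and 1656 in RM-HS, against 2339.5, 703, 1544, 956, 669.8 and 1811 in Sham 1 to 6. All 3 RM-HS libraries lay below all 6 RM libraries, and no injured group separated from Sham. Ptpro ran from 1204 through 1381 to 1590.2 in RM, stood at 1029, 1214, 1289, 1059.7 and 964 in HS and at 1344, 1211 and 961 in RM-HS, against 1267, 296, 773, 518, 319 and 1345 in Sham 1 to 6. Its groups overlapped in every comparison. Podxl averaged 2225 ± 244 in RM, 1750.0 ± 197 in HS and 1546 ± 128 in RM-HS, against 1337 ± 673 in Sham, and Ptpro averaged 1405 ± 135, 1111 ± 135 and 1172 ± 195 in the same 3 injured groups, against 753 ± 462 in Sham (SD, n = 6, 5, 3 and 6).

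The foot process actin gene Synpo followed the same course, and the signalling gene Plce1 did not. Synpo ran from 1651 through 1728 to 2431.8 in RM, stood at 1592, 2247, 1774, 1756 and 1675 in HS and at 1676, 1508 and 1518 in RM-HS, against 1862, 752, 1041, 999, 734 and 1829 in Sham 1 to 6. The 4 low Sham libraries were again Sham 2 to 5, and HS 2 stood apart from the other HS libraries. Plce1 ran from 622 through 650.2 to 1077 in RM, stood at 821, 873, 803, 876 and 844 in HS and at 608, 624.9 and 599 in RM-HS, against 1201, 873, 970.4, 1080.3, 508 and 839.8 in Sham 1 to 6. Here Sham 2 to 4 stood above most RM libraries and Sham 5 was the lowest of all 20, RM 1 was the highest injured library, and RM-HS lay wholly below HS. Synpo averaged 1896 ± 322 in RM, 1809 ± 256 in HS and 1567 ± 94.0 in RM-HS, against 1203 ± 513 in Sham, whereas Plce1 averaged 742 ± 179.8, 843 ± 31.9 and 610.4 ± 13.4 in those injured groups, against 912 ± 239 in Sham (SD, n = 6, 5, 3 and 6).

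Wt1, the transcription factor, was the 1 gene of the 6 for which RM-HS stood apart from both single-label groups. It ran from 335 through 373 to 491 in RM, stood at 451, 467, 336, 473 and 369.8 in HS, and at 183, 328 and 207 in RM-HS, against 339, 66.2, 227, 114, 85.1 and 363 in Sham 1 to 6. All 3 RM-HS libraries lay below all RM and all HS libraries, although RM-HS 2, at 328, came within 10 counts of the lowest RM library. The means were 390.0 ± 56.2 in RM, 419 ± 62.6 in HS and 239 ± 77.9 in RM-HS, against 199 ± 131 in Sham (SD, n = 6, 5, 3 and 6).

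RM against Sham asked how the podocyte genes stood in RM kidneys. Nephrin, podocalyxin, Ptpro, synaptopodin and Wt1 were higher in RM, and Plce1 did not pass. The differences in log2(value + 1), a scale that understates the change of low genes, were 2.16 ± 0.43 for Nphs1 (SE, limma adjusted p = 0.00029), 1.25 ± 0.33 for Wt1 (0.0034), 1.14 ± 0.29 for Ptpro (0.0024), 0.89 ± 0.23 for Podxl (0.0031) and 0.74 ± 0.20 for Synpo (0.0035), with p-values adjusted by Benjamini-Hochberg over all tested rows and a threshold of 0.05. Plce1 gave -0.28 ± 0.16 (95% interval -0.62 to 0.06, limma adjusted p = 0.16), and it passed as lower without RM 1 (adjusted p = 0.038) or without Sham 5 (0.0086). The 5 of 6 that passed upward stand beside 26.2% of all tested rows that passed upward, and the median difference was 1.01 over the 6 genes and -0.04 over all rows. Nphs1 was also the 1 gene whose groups did not overlap, as was so, in the higher direction, for 13.3% of all rows.

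With Sham 1 and Sham 6 as the only controls, nephrin passed in RM and the other 4 genes called above did not. The value for Nphs1 was then 0.65 ± 0.13 (SE, limma adjusted p = 0.0017), from 2232 to 3260.2 in RM against 1713 and 1813 in those Sham libraries. Wt1, Ptpro, Podxl and Synpo gave 0.14, 0.10, 0.10 and 0.02, with 95% intervals of -0.30 to 0.58, -0.20 to 0.40, -0.18 to 0.39 and -0.30 to 0.34 and adjusted p of 0.58 to 0.92. Plce1 gave -0.47 ± 0.18 (adjusted p = 0.06). In that fit 18.0% of all rows passed upward. Only RM 1 shares the name letter R with Sham, at 2898 for Nphs1, and among libraries named R none of the 6 passed (Nphs1 2.23 ± 0.99, adjusted p = 0.22, with the lone RM library taken to vary like the other groups). With the letter as a term in the fit, Nphs1 stayed past the threshold (2.20 ± 0.63, adjusted p = 0.013) and Wt1 did not (1.16 ± 0.48, adjusted p = 0.079).

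For HS against Sham the question was how these genes stood in HS kidneys. Nephrin, Wt1, Ptpro and synaptopodin were higher in HS, by 1.73 ± 0.45 for Nphs1 (SE, limma adjusted p = 0.0036), 1.35 ± 0.35 for Wt1 (0.0033), 0.80 ± 0.30 for Ptpro (0.035) and 0.68 ± 0.21 for Synpo (0.01) on the log2 scale. Podxl gave 0.54 ± 0.24 (95% interval 0.04 to 1.04, adjusted p = 0.074) and Plce1 -0.06 ± 0.17 (-0.42 to 0.29, adjusted p = 0.79). The count of 4 of 6 upward stands beside 23.3% of all tested rows, with 46.4% in either direction. Nphs1 was the 1 gene of the 6 without overlap, as in 13.7% of all rows. The Ptpro call ended without HS 2, HS 3, HS 4, Sham 2, Sham 4 or Sham 5, each left out in turn (adjusted p of 0.054 to 0.093), and Podxl passed without Sham 1 (0.0071) or Sham 6 (0.031). In a fit of HS and Sham alone Ptpro did not pass (adjusted p = 0.1), the Nphs1 call ended without Sham 5 (0.051) and the Synpo call ended without any of HS 2 to 5 or Sham 2 to 5 (0.055 to 0.089). In that fit Ptpro passed without Sham 1 (0.036) or Sham 6 (0.03), and Podxl without Sham 1 (0.036).

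None of the 6 genes passed between HS and Sham when Sham 1 and Sham 6 were the only controls. Nphs1 gave 0.22 ± 0.14 (95% interval -0.07 to 0.51, limma adjusted p = 0.25), from 1982 to 2142 in HS against 1713 and 1813 in those 2 libraries. Ptpro and Podxl turned to -0.24 each and Synpo to -0.04. The Wt1 call ended, at 0.24 (interval -0.21 to 0.70, adjusted p = 0.43) against 1.35 with all 6 Sham libraries. In that fit 25.7% of all rows passed in either direction. Among libraries named R, 3 of HS and 6 of Sham, none of the 6 passed either (Nphs1 1.74 ± 0.65, adjusted p = 0.055). The share of all rows that passed among libraries named R is not given here, so this count has no background beside it.

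RM-HS against Sham gave a call in each direction. Nephrin was higher in RM-HS by 2.06 ± 0.52 on the log2 scale (SE, limma adjusted p = 0.0038) and Plce1 was lower, with a log2 difference of -0.53 ± 0.20 (0.039). The other 4 did not pass: Ptpro gave 0.87 ± 0.35 (95% interval 0.14 to 1.61, adjusted p = 0.053), Wt1 0.51 ± 0.40 (-0.33 to 1.35, 0.32), Synpo 0.48 ± 0.24 (-0.02 to 0.99, 0.11) and Podxl 0.37 ± 0.28 (-0.22 to 0.95, 0.31). Of all tested rows 21.3% passed upward and 21.0% downward, so 1 of 6 in each direction is near the background, and Nphs1 was the 1 gene without overlap, as in 16.5% of all rows. The Plce1 call ended when any RM-HS library or any of Sham 1 to 4 was left out (adjusted p of 0.051 to 0.099). Ptpro and Synpo passed without Sham 1 (0.012 and 0.024) or without Sham 6 (0.0096 and 0.028). In a fit of RM-HS and Sham alone Nphs1 passed and Plce1 did not (adjusted p = 0.093, or 0.0056 without Sham 5), and the Nphs1 call ended without any RM-HS library or without Sham 3, 4 or 5 (adjusted p of 0.062 to 0.14).

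Both genes called in RM-HS also passed when Sham 1 and Sham 6 were the only controls, a pair that lends no independent support. Nphs1 gave 0.55 ± 0.15 (SE, limma adjusted p = 0.013), from 2182 to 3091 in RM-HS against 1713 and 1813, and Plce1 gave -0.72 ± 0.20 (0.016), from 599 to 624.9 in RM-HS against 1201 and 839.8. Wt1 turned to -0.60 ± 0.23 (95% interval -1.09 to -0.10, adjusted p = 0.068) and Podxl to -0.42 (adjusted p = 0.051). In that fit 15.0% of all rows passed upward and 12.3% downward. All RM-HS and Sham libraries are named R, so the letter does not separate these groups, and in a fit of R-named libraries with all 6 Sham libraries Nphs1 passed (adjusted p = 0.024) and Plce1 did not (0.062). The 3 comparisons share the Sham libraries and are not independent of each other.

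**Figure D2:**
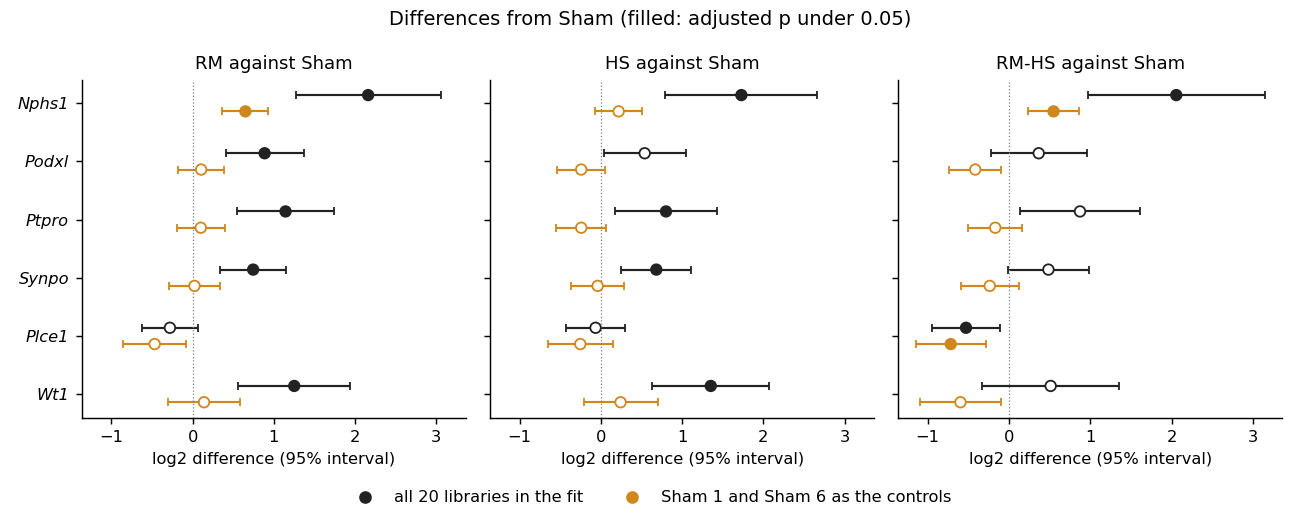
Log2 difference of RM, HS and RM-HS from Sham (x axis, points with 95% intervals) for each podocyte gene (rows), with all 20 libraries in the fit (black) and with Sham 1 and Sham 6 as the only controls (orange); filled points have a limma adjusted p under 0.05. Nphs1 is filled in both settings for RM and RM-HS, at 2.16 and 0.65 for RM and 2.06 and 0.55 for RM-HS, and the other upward calls hold with all 6 Sham libraries only.

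In bulk kidney, fewer podocytes in a piece of tissue and less RNA per podocyte cannot be told apart, and the share of cortex in each piece was not measured. The low Sham libraries 2 to 5 were low in early proximal tubule genes and high in collecting duct genes, as given above, and the part of these segment differences in the podocyte results was not tested.

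The comparisons among injured kidneys use no Sham library as a group, although Sham enters the estimate of spread when all 20 libraries are fitted together. In that fit none of the 6 genes passed for RM against HS, RM-HS against HS or RM-HS against RM by limma, edgeR or DESeq2, against 23.8%, 20.6% and 1.08% of all tested rows by limma. At an unadjusted p under 0.05 the counts were 0, 1 and 0, the 1 being Plce1 in RM-HS against HS. Fitting only the groups compared leaves out the widely spread Sham libraries, and the estimates are the same with narrower intervals.

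RM kidneys had more nephrin, podocalyxin and Ptpro message than HS kidneys by that narrower measure. Nphs1 differed by 0.43 ± 0.09 (SE, limma adjusted p = 0.0044, RM and HS libraries alone), Podxl by 0.35 ± 0.10 (0.02) and Ptpro by 0.34 ± 0.10 (0.022), whereas the fit of all 20 libraries gave the same differences with SE of 0.45, 0.24 and 0.30 and adjusted p of 0.53, 0.32 and 0.44. In the fit of RM and HS alone 12.5% of all rows passed upward. The Nphs1 call held whichever library was left out (adjusted p of 0.0011 to 0.012). The Podxl call ended without HS 5 (0.051), the Ptpro call without HS 4 (0.052) or HS 5 (0.055), and Plce1 passed as lower in RM without RM 1 (0.02). Nphs1 was the 1 gene of the 6 whose RM and HS libraries did not overlap, as was so, with RM higher, for 6.04% of all rows. Both groups hold libraries of both name letters, and within each letter these 3 genes separated. Among libraries named R, Nphs1 stood at 2898 in RM 1 against 1982 to 2142 in HS, and among those named S at 2232 to 3260.2 in RM against 1999.7 to 2069 in HS. For Podxl the S libraries stood at 1931 to 2433 in RM against 1529 to 1718 in HS, and for Ptpro at 1204 to 1516 in RM against 964 to 1059.7 in HS. Synpo (0.06, 95% interval -0.20 to 0.32 in the fit of RM and HS alone) and Wt1 (-0.10, -0.39 to 0.18) did not pass.

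RM-HS kidneys had less Plce1 and Wt1 message than HS kidneys when only those groups were fitted. Plce1 differed by -0.46 ± 0.09 (SE, limma adjusted p = 0.012) and Wt1 by -0.84 ± 0.22 (0.028), in a fit in which 8.85% of all rows passed downward. With all 20 libraries in the fit the adjusted p was 0.12 for Plce1, or 0.041 without Sham 5, and 0.16 for Wt1. In the fit of RM-HS and HS alone the Plce1 call held whichever library was left out (adjusted p of 0.014 to 0.038), and the Wt1 call ended without HS 1, HS 2, HS 4, RM-HS 1 or RM-HS 3 (0.055 to 0.095). Both genes were without overlap, as was so, with RM-HS lower, for 12.2% of all rows. Nphs1 lay wholly above HS, as 12.8% of all rows did, but its 0.33 ± 0.11 did not pass in the fit of these groups (adjusted p = 0.071) and did so without RM-HS 2 (0.027). The R-named HS libraries, 3 in number, stood at 803 to 873 for Plce1 and 336 to 467 for Wt1, all above the RM-HS libraries, which are all named R.

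RM-HS against RM gave no call for any of the 6 genes when only those groups were fitted, a fit in which 0.263% of all rows passed. Podxl differed by -0.52 (95% interval -0.76 to -0.28, limma adjusted p = 0.079) and Wt1 by -0.74 (-1.18 to -0.30, adjusted p = 0.13), and both were without overlap, as was so, with RM-HS lower, for 3.44% of all rows. Podxl passed with only Sham 1 and 6 kept in the fit of all groups (adjusted p = 0.041, 0.715% of all rows passing downward). No Sham library enters this difference, which stayed at -0.52 while its SE went from 0.28 with all Sham libraries to 0.12. Wt1 passed in that fit only when RM 1 was left out as well (0.033), a setting added after seeing the data. Both calls rest on the choice of libraries, and the fit of RM-HS and RM alone gave neither. Nphs1 differed by -0.10 (95% interval -0.41 to 0.20). RM has 1 library named R and RM-HS has no other letter, so within the letter the comparison rests on RM 1.

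**Figure D3:**
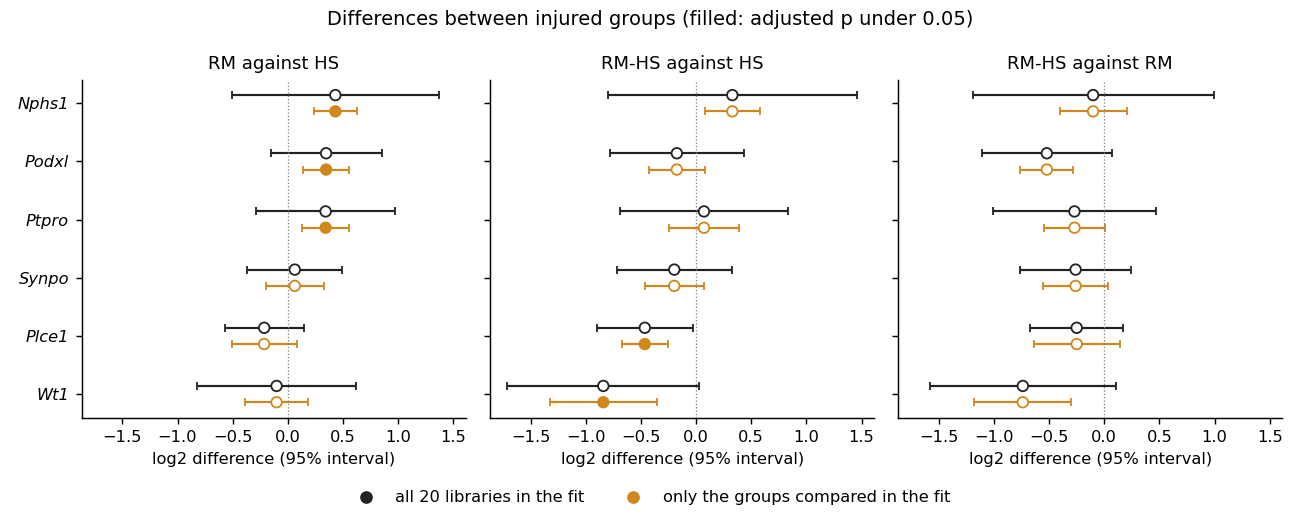
Log2 difference (x axis, points with 95% intervals) between injured groups for each podocyte gene (rows), with all 20 libraries in the fit (black) and with only the groups compared (orange); filled points have a limma adjusted p under 0.05. The points coincide and the orange intervals are narrower, so that 3 genes are filled for RM against HS and 2 for RM-HS against HS, with none filled for RM-HS against RM.

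To set the 6 genes against the rest of the podocyte programme, each was expressed relative to the mean log2 level of 26 other podocyte genes in the same library, out of 28 listed. Such a ratio shows unequal change and cannot show that either side stayed still. The 26 are mixed over all 20 libraries: Rhpn1, Bcam, Trpc6, Pla2r1 and Cdkn1c ran against the mean of the 6 genes (r = -0.566, -0.519, -0.449, -0.369 and -0.238). The others ran with it, up to 0.966 for Crb2. The scale depends on that mix, whose part in the differences was not tested. On this scale Nphs1 ran from 1.64 to 2.11 in RM, 1.58 to 1.79 in HS and 1.78 to 2.14 in RM-HS, against 1.30, -1.20, 0.58, 0.33, -0.24 and 1.39 in Sham 1 to 6. Every injured library was again above every Sham library, but how many of all rows do so on this scale was not counted. Nephrin was higher than in Sham relative to the mean of these 26 genes by 1.502 ± 0.28 in RM (SE, limma adjusted p = 8.1e-05), 1.33 ± 0.29 in HS (0.0011) and 1.61 ± 0.34 in RM-HS (0.00087). With Sham 1 and 6 as the only controls it passed in RM (0.52 ± 0.13, adjusted p = 0.006) and RM-HS (0.62 ± 0.14, 0.0049), as 11.9% and 15.5% of all rows did upward. In that fit none of the 6 genes passed on this scale in HS against Sham, where 3852 of the 15954 tested rows passed in either direction.

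Plce1 was lower relative to the other podocyte genes in RM and RM-HS, as were many rows of the table. On this scale it ran from -0.22 to 0.36 in RM and -0.20 to -0.02 in RM-HS, against 0.28 to 1.47 in Sham, so that RM 1 alone of these 9 libraries reached the Sham range, through Sham 6. It was lower, with a log2 difference of -0.94 ± 0.18 in RM (SE, limma adjusted p = 0.00012) and -0.98 ± 0.22 in RM-HS (0.0015), and in HS -0.46 ± 0.19 (0.056), which did not pass. Of all tested rows 54.5% passed downward on this scale in RM and 31.2% in RM-HS, and their median was -0.70 for RM, -0.43 for HS and -0.48 for RM-HS, so that most rows share the downward call in RM. In level, with all libraries fitted, Plce1 passed against Sham in RM-HS only. Against Sham 1 and 6 alone Plce1 was lower, with a log2 difference of -0.60 in RM (0.011) and -0.64 in RM-HS (0.019), where 19.1% and 8.86% of all rows passed downward. In the fit of only the groups compared it was lower than in HS, at -0.47 ± 0.12 in RM (0.0074) and -0.52 ± 0.12 in RM-HS (0.02), fits in which 28.0% and 8.86% of all rows passed downward.

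Wt1 and Ptpro passed on this scale in part of the comparisons, and Podxl and Synpo in none with Sham. Wt1 was higher than in Sham by 0.59 ± 0.24 in RM (SE, limma adjusted p = 0.032) and 0.95 ± 0.25 in HS (0.0039), and gave 0.06 ± 0.29 in RM-HS (0.88). Ptpro was higher in RM by 0.49 ± 0.18 (0.024). Neither Wt1 nor Ptpro passed in RM when only RM and Sham were fitted or with Sham 1 and 6 as controls, and Wt1 in HS passed in the first of these fits only. In all 3 of 6 passed upward and 1 downward in RM, against 6.37% and the 54.5% above of all tested rows. In HS 2 passed upward, against 5.93% of rows, and in RM-HS 1 passed upward and 1 downward, against 6.14% and the 31.2% above. The RM count was 2 without Sham 2, Sham 4 or Sham 5, and the HS count was 4 without Sham 1 or Sham 6. Among injured groups none passed with all libraries fitted, against 15.1% of rows for RM against HS, 4.07% for RM-HS against HS and 0.0501% for RM-HS against RM. At an unadjusted p under 0.05 limma gave 1, 2 and 0 of them in that order, and without Sham 2 the adjusted count for RM against HS was 1. With only the groups compared, Wt1 was lower in RM-HS than in HS, at -0.89 ± 0.22 (0.024).

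**Figure D4:**
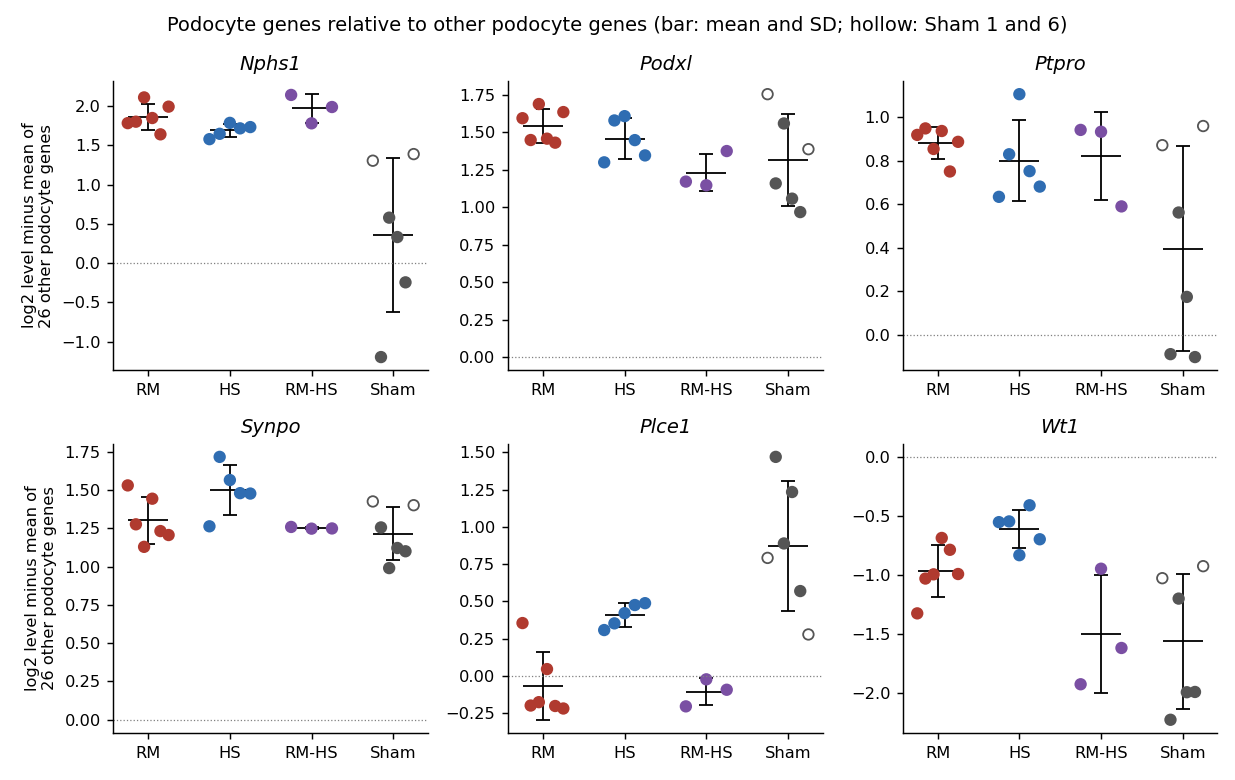
Log2 level of each podocyte gene minus the mean log2 level of 26 other podocyte genes (y axis) in each of the 20 libraries, by group (x axis), with points for libraries, a bar for the mean and whiskers for the SD; hollow points are Sham 1 and Sham 6. For Nphs1 every RM, HS and RM-HS library, at 1.58 or more, lies above every Sham library, at 1.39 or less. The share of all rows that do so was not counted.

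The other podocyte genes were split in direction. Of the 26, all of them tested and none at 0 in any library, 16 rose and 3 fell in RM against Sham, 12 rose and 4 fell in HS, and 10 rose and 4 fell in RM-HS, with medians of 0.65, 0.48 and 0.53 against -0.04, -0.03 and -0.03 over all rows. Over all tested rows 26.2%, 23.3% and 21.3% rose and 26.8%, 23.2% and 21.0% fell in those comparisons. With Sham 1 and 6 as the only controls these counts were 3 up and 1 down in RM, 4 and 2 in HS, and 3 and 3 in RM-HS, and the medians were 0.12, -0.24 and -0.04, where 18.0%, 14.6% and 15.0% of all rows rose and 14.9%, 11.1% and 12.3% fell. In a fit of RM-HS and Sham alone 5 rose and 2 fell. Sema3g, a secreted semaphorin made by podocytes, followed nephrin, at 7266 to 9861 in RM, 5768 to 7269 in HS and 7603 to 9846 in RM-HS, against 5788, 719, 2658, 2521, 993 and 5925 in Sham 1 to 6, so that HS alone overlapped Sham. Its differences were 1.88 ± 0.37 in RM, 1.52 ± 0.39 in HS and 1.82 ± 0.46 in RM-HS (SE, limma adjusted p of 0.00031, 0.0035 and 0.0033). Against Sham 1 and 6 alone they were 0.55 ± 0.14 (adjusted p = 0.0053), 0.19 ± 0.14 (0.32, the call in HS ending) and 0.50 ± 0.15 (0.022). Col4a3, a type IV collagen chain of the glomerular basement membrane that the tubule also makes, passed as higher by 0.50 ± 0.21 in RM (0.048) and 0.55 ± 0.22 in HS (0.045). Both calls ended in fits of the groups compared (0.05 and 0.079), and with Sham 1 and 6 as controls the differences turned to -0.15 (0.64) and -0.10 (0.77). Bcam, a laminin receptor also found on other cells, fell by 0.65 ± 0.16 in RM (0.0024), 0.90 ± 0.17 in HS (0.00029) and 0.54 ± 0.20 in RM-HS (0.035). Set against Sham 1 and 6 it passed in HS (-0.70 ± 0.22, 0.03) and not in RM (-0.46 ± 0.22, 0.12) or RM-HS (-0.35 ± 0.25, 0.31), and in a fit of RM-HS and Sham alone it did not pass (0.051). Rhpn1, which encodes rhophilin, fell in HS by 0.63 ± 0.13 (0.00045), a call that ended with Sham 1 and 6 as controls (-0.36 ± 0.17, 0.12).

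Between injured groups, 6 of the other podocyte genes passed for RM against HS and 2 for RM-HS against HS, with none for RM-HS against RM. Of all tested rows 23.8%, 20.6% and 1.08% passed in those comparisons, so that 6 of 26 is near the background and 2 of 26 is below it, and the list as a whole shows no more than other rows. Of those given here, Tcf21, a transcription factor of podocytes that stromal cells also express, was higher in RM than in HS by 1.07 ± 0.22 (SE, limma adjusted p = 0.0015). Tcf21 ran from 1034 to 1904 in RM, against 570.0, 773, 1157, 806 and 408 in HS, and overlapped through HS 3. The polarity gene Pard3b (0.69 ± 0.21, 0.023) and Rhpn1 (0.45 ± 0.13, 0.014) were also higher in RM, and Rhpn1 was higher in RM-HS than in HS (0.57 ± 0.15, 0.014). Efnb1, ephrin-B1, a slit diaphragm component that other epithelia share, was lower in RM than in HS, at a log2 difference of -0.79 ± 0.08 (1.5e-06) and in RM-HS than in HS, at -0.85 ± 0.10 (2.4e-05). It stood at 1714 to 2045 in RM and 1666 to 1937 in RM-HS, against 2999 to 3667 in HS, and at 1999 to 2591 in Sham. Neither RM nor RM-HS overlapped HS. In RM-HS against HS 12.2% of all rows were likewise lower without overlap, and the share for RM against HS in that direction is not given here. Htra1, a secreted protease, was lower in RM than in HS, at a log2 difference of -0.57 ± 0.18 (0.024).

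Genes of adaptor, actin-linked and adhesion proteins that are partners of the slit diaphragm, and that many cell types express, rose more often than they fell. Of 17 tested, 9 rose and 4 fell in RM, 10 rose and 2 fell in HS, and 7 rose and 4 fell in RM-HS, with medians of 0.19, 0.30 and 0.19. Of all tested rows 26.2%, 23.3% and 21.3% rose and 26.8%, 23.2% and 21.0% fell, so the counts that fell were near or below the background. Counted against Sham 1 and 6, 6, 7 and 7 genes rose and 4, 3 and 3 fell, beside 18.0%, 14.6% and 15.0% of all rows that rose and 14.9%, 11.1% and 12.3% that fell. Actn4, alpha-actinin-4, an actin cross-linker, averaged 22514 ± 470.5 in RM (SD, n = 6), 29227 ± 777 in HS (n = 5) and 26092 ± 2851 in RM-HS (n = 3), against 16573 ± 2429 in Sham (n = 6). It rose by 0.45 ± 0.08 in RM (SE, limma adjusted p = 0.00012), 0.83 ± 0.09 in HS (6.7e-07) and 0.66 ± 0.10 in RM-HS (3.8e-05), and was lower in RM than in HS, at a log2 difference of -0.38 ± 0.09 (0.0034). Against Sham 1 and 6 it gave 0.20 ± 0.09 in RM, which did not pass (0.091), 0.58 ± 0.09 in HS (0.0005) and 0.41 ± 0.10 in RM-HS (0.0065). Ezr, ezrin, which ties podocalyxin to actin, rose by 0.82 ± 0.10 in RM (1.6e-06), 0.49 ± 0.11 in HS (0.00085) and 1.03 ± 0.12 in RM-HS (2.9e-06), and with Sham 1 and 6 as controls the HS call ended (0.32 ± 0.15, 0.12). Proximal tubule brush borders hold much ezrin too, so its level is no measure of podocytes. Arhgdia rose in HS (0.30 ± 0.10, 0.017) and RM-HS (0.36 ± 0.12, 0.015) and gave 0.11 ± 0.09 in RM (0.33).

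Of 9 genes of the glomerular basement membrane and its anchors, 5 rose and 3 fell in RM, 3 rose and 2 fell in HS, and 5 rose and 2 fell in RM-HS. Of all tested rows 26.2%, 23.3% and 21.3% rose and 26.8%, 23.2% and 21.0% fell. With Sham 1 and 6 as controls 5, 3 and 5 of the 9 rose and 1, 2 and 1 fell. Itgb1, the integrin beta 1 chain, rose in all 3 by 0.64 ± 0.08, 0.62 ± 0.09 and 0.60 ± 0.10 (SE, limma adjusted p of 2.5e-06, 1.3e-05 and 9.2e-05). Vegfa, the podocyte signal to glomerular endothelium that tubules also make, averaged 22186 ± 2754 in RM (SD, n = 6), 14706 ± 2085 in HS (n = 5) and 22102 ± 1000.1 in RM-HS (n = 3), against 16707 ± 2072 in Sham (n = 6). It rose by 0.41 ± 0.10 in RM (0.0023) and 0.41 ± 0.13 in RM-HS (0.012), and gave -0.19 ± 0.11 in HS (0.17). It was higher in RM than in HS by 0.60 ± 0.11 (0.00049) and in RM-HS than in HS by 0.60 ± 0.13 (0.0034). Cd151, a tetraspanin that binds integrins, passed in none of the 3 comparisons with Sham.

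Markers of the other cells of the glomerulus did not move as a block. The counts against Sham stand beside 26.2%, 23.3% and 21.3% of all tested rows that rose in RM, HS and RM-HS. Those that fell were 26.8%, 23.2% and 21.0%. With Sham 1 and 6 as controls 18.0%, 14.6% and 15.0% rose and 14.9%, 11.1% and 12.3% fell. Of 8 endothelial genes, 2 rose and 3 fell in RM, 2 rose and 5 fell in HS, and 2 rose and 4 fell in RM-HS, and their summed level ran from 13587 to 22562, from 11477 to 13819 and from 15108 to 15997 in those groups, against 11914 to 17134 in Sham. With Sham 1 and 6 as controls 2, 1 and 2 of the endothelial genes rose and 3, 5 and 5 fell. Of 7 mesangial genes, 1 rose and 4 fell in RM, 3 fell in HS, and 2 rose and 2 fell in RM-HS, and with Sham 1 and 6 as controls 2 fell in RM, 3 fell in HS, and 1 rose and 1 fell in RM-HS. The mesangial sums were 3565 to 5429, 2990 to 3945 and 4048 to 5640.1, against 3394 to 6321 in Sham. Of 4 parietal epithelial genes, which tubules share, 3 rose and 1 fell in each injured group. With Sham 1 and 6 as controls 2, 3 and 2 of these parietal genes rose and 1 fell in each. In a fit of RM-HS and Sham alone 2 of them rose and 1 fell. Both juxtaglomerular genes rose in each injured group. Against Sham 1 and 6 alone 1, 0 and 0 of those 2 juxtaglomerular genes rose in RM, HS and RM-HS, and in fits of the groups compared 2, 1 and 1. For RM against HS, 5 of the 8 endothelial genes were higher in RM and none lower, beside 23.8% of all tested rows that passed in either direction. The early proximal tubule genes, by contrast, rose in 8 of 8 in RM, 6 of 8 in HS and 8 of 8 in RM-HS, and collecting duct genes fell in 7 of 7 in each. Only 3, 1 and 4 of the 8 early proximal tubule genes rose when Sham 1 and 6 were the controls, with a median in HS of -0.05 against 2.86 with all Sham libraries, and 4, 2 and 3 of the 7 collecting duct genes fell. Thick ascending limb genes fell in 6 of 6 in RM and HS and 5 of 6 in RM-HS, and 5, 6 and 4 of the 6 fell with Sham 1 and 6 as controls. Of 4 late proximal tubule genes 1 rose and 2 fell in each, or 1 and 0 with Sham 1 and 6 as controls, neither of the 2 tested distal convoluted tubule genes passed, and of 4 smooth muscle genes 1 rose in RM and none passed in HS or RM-HS. No marker of these lists was at 0 in any library except Slc14a2 of the collecting duct list, in 1 library, and Pvalb of the distal list, in 15. The part of these cell types in the podocyte differences was not tested.

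Across libraries, 5 of the 6 genes varied together and Plce1 apart. Over all 20 libraries the Pearson correlation of each gene with the mean of the other 5 was 0.967 for Ptpro, 0.951 for Synpo, 0.945 for Podxl, 0.894 for Nphs1 and 0.893 for Wt1, against 0.04 for Plce1. Over the 14 RM, HS and RM-HS libraries, without any Sham library, they were 0.779 for Synpo, 0.773 for Podxl, 0.579 for Ptpro, 0.42 for Plce1, 0.239 for Wt1 and 0.125 for Nphs1. Among these 14 libraries Nphs1 went with Ptpro (0.679) and Podxl (0.599), Synpo went with Plce1 (0.729), and Nphs1 and Wt1 gave -0.373. The genes of a library share its tissue piece and its scaling, and the values are a description.

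The rows most like the mean of the 6 over all 20 libraries, among 11160 rows with a symbol, a mean of at least 50 and no membership in the set, include Crb2 (r = 0.966), a polarity protein of the podocyte, Sema3g (0.955), Fam151a (0.94), the guidance receptor gene Robo2 (0.934), Slc5a2 (0.93), the lactate transporter gene Slc5a12 (0.929), the slit diaphragm scaffold gene Magi2 (0.928), the peptide transporter gene Slc15a1 (0.925) and Spink1l (0.923). Crb2 stood at 201 to 322 in RM, 149.6 to 233 in HS and 192 to 242 in RM-HS, against 229, 20.6, 83.9, 49.4, 23.7 and 298 in Sham 1 to 6. The 10 highest hold 4 genes of the other podocyte list beside proximal tubule transporters. Over the 14 libraries outside Sham they were a different 10, led by the natriuretic peptide clearance receptor gene Npr3 (0.875), the endothelial receptor gene Tek (0.871), Pla2g4a (0.846) and Sfrp1 (0.842), with none of the other podocyte list among them.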

How the data were processed

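Stranded, paired-end mRNA libraries of rat kidney were sequenced, per the labels' protocols. Reads, per the submitters' processing notes, were checked with FastQC 0.11.2, Picard 1.119 and SAMtools 1.0, aligned with STAR to rn6, counted with featureCounts of Subread 1.5.0 and normalized with DESeq2, so the values the authors deposited are a signal of normalized read counts. The sources used here give no counting settings. Dividing each library by its smallest step returned reads (100% of values lay less than 0.1 read from an integer), which were used for edgeR and DESeq2 as alternatives.

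Groups came from the disease label, and replicate numbers follow listing order. Every one of the columns was mapped to a sample. The main test was limma 3.58.1 (R 4.3.3) fitted to log2(value + 1) with trended prior variance, 1 fit of 4 group means over 20 libraries, 15954 of 34681 rows tested, Benjamini-Hochberg within each comparison, threshold 0.05. The relative test subtracted from every row the library's mean log2 level of 26 other podocyte genes. Intervals are 95% and moderated. The procedure was tested on simulated data with the same spread setting in every group. That simulation did not test the fit with a group as uneven as the Sham libraries here. The members and lists were chosen with earlier results of these data known. Named genes were the 6 members, the 4 other podocyte genes of highest mean, those called between injured groups, up to 3 of each other list by mean (given for the lists of slit diaphragm partners and basement membrane), the 10 rows most like the members, and segment markers. Alternatives were pseudocounts of 0.5 and 8, no filter, a filter of 50, trimmed mean of M values and upper quartile scaling, fits of the groups compared, the name letter as covariate, libraries named R, Sham 1 and 6 as controls, edgeR 4.0.16, DESeq2 1.42.0 and leaving out each library. Leaving out RM 1 as well, and each library from fits of the groups compared, were added after seeing the data. Some genes that these rules name are not reported here.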

Additional observations from a re-analysis of the deposited data

Results flagged for a closer look

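Over the 6 podocyte genes and the groups of 5 or 6 libraries, 18 sets were examined for a library standing apart from its group, and 1 had such a library, about as many as chance gives at 1 in 20. Synaptopodin stood at 2247 in HS 2, against 1592 to 1774 in the other HS libraries, and was far from the nearest of them relative to the range of the group.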

How the results depend on the processing

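Over the differences of the 6 genes in each comparison, in level and relative to the other podocyte genes, under the alternatives run, 2224 kept their sign and their side of the adjusted p of 0.05, 89 gained a call, 85 lost one and 50 changed sign. No paired analysis was possible because the labels give the groups no shared replicate numbers. The cause of the changes was not tested. The number of the 6 genes that passed was 5 in RM against Sham with all libraries, against 1 with Sham 1 and 6 as controls, 2 with RM 1 left out as well, and 0 among libraries named R. For HS against Sham it was 4, and 0 in each of those 3 settings. For RM-HS against Sham it was 2, against 1 in the fit of those groups and among libraries named R. For RM-HS against RM it was 0, against 1 with Sham 1 and 6 and 2 with RM 1 also left out. For RM-HS against HS it was 0, against 2 in the fit of those groups, 1 with Sham 1 and 6, and 2 with RM 1 also left out. For RM against HS it was 0, against 3, 3 and 4 in those 3 settings. Between injured groups the choice of Sham libraries changes only the estimate of spread. Leaving out each library gave 5 to 6, 3 to 5 and 1 to 4 for RM, HS and RM-HS against Sham, 0 to 0 for RM-HS against RM, 0 to 1 for RM-HS against HS and 0 to 0 for RM against HS. In fits of the groups compared the ranges were 5 to 6, 1 to 5, 0 to 1, 0 to 0, 1 to 3 and 1 to 4 in that order. Counts by edgeR and by DESeq2 were 5, 3 and 2 against Sham and 0 between injured groups.

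Relative to the other podocyte genes the count for RM against Sham was 4, against 2 in the fit of those groups and 2 with Sham 1 and 6. It was 2 for HS against Sham, against 0 with Sham 1 and 6. It was 0 for RM-HS against HS, against 2 in each of those settings, and 0 for RM against HS, against 1 in each. Leaving out each library gave 2 to 4, 2 to 4 and 2 to 3 against Sham, and 0 to 1 for RM against HS.

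Differences that changed sign were these. With Sham 1 and 6 as controls, with or without RM 1, Podxl, Ptpro and Synpo gave -0.24, -0.24 and -0.0395 in HS against Sham, and Podxl, Ptpro, Synpo and Wt1 gave -0.42, -0.17, -0.24 and -0.60 in RM-HS against Sham. With RM 1 also left out Synpo gave -0.0521 in RM against Sham and -0.0126 in RM against HS. Among libraries named R, Plce1 gave 0.29 in RM against Sham and 0.37 in RM against HS, and Ptpro -0.014 in RM-HS against HS. With the name letter in the fit Plce1 gave 0.0358 in HS against Sham and Ptpro -0.0151 in RM-HS against HS. Leaving out each library, Plce1 ran from -0.22 to 0.0243 in HS against Sham, Synpo from -0.0126 to 0.14 in RM against HS, Ptpro from -0.0341 to 0.21 in RM-HS against HS and Nphs1 from -0.23 to 0.0179 in RM-HS against RM. Relative to the other podocyte genes, with Sham 1 and 6 as controls, Podxl, Ptpro and Synpo gave -0.0284, -0.0329 and -0.11 in RM, Podxl and Ptpro -0.11 and -0.11 in HS, and Ptpro, Synpo and Wt1 -0.0937, -0.16 and -0.52 in RM-HS, all against Sham. On that scale, leaving out each library, RM-HS against Sham ran from -0.16 to 0.0048 for Podxl, -0.0088 to 0.0782 for Synpo and -0.21 to 0.28 for Wt1. RM-HS against RM ran from -0.12 to 0.0547 for Ptpro and -0.0828 to 0.0432 for Plce1, and RM-HS against HS from -0.0389 to 0.14 for Ptpro.

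Over all tested rows, 8455 passed in RM against Sham, against 4551 with the name letter, 766 among libraries named R and 5250 with Sham 1 and 6. In HS against Sham 7410 passed, against 4105 with Sham 1 and 6 and 4405 with RM 1 also left out, and in RM-HS against Sham 6749, against 4347 with Sham 1 and 6. In RM-HS against RM 173 passed, against 42 in the fit of those groups, 0 with the letter or among libraries named R, 563 with Sham 1 and 6 and without RM 1, and 505 by DESeq2. Among libraries named R 1203 passed in RM-HS against HS, against 3287 in all, and 195 in RM against HS, against 3791. Upper quartile scaling moved the share of calls that were higher to 37.0% in RM, 38.5% in HS and 36.9% in RM-HS against Sham, against 49.4%, 50.1% and 50.3%, and the median of all rows to -0.18, -0.15 and -0.16.

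Each value of the 6 genes rests on 77 reads or more, and RM-HS has 3 libraries, which limits its comparisons.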
